A study of Mus musculus with 12 samples.

Results

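The regions described here are 319 unmodified genomic elements of the mouse retina that drove a reporter above the typical level on both promoters of the assay. For each element and promoter, reads were summed over its barcodes and over 3 replicates, and activity (A) was the log2 ratio of its share of cDNA reads to its share of DNA reads, minus the median of that ratio over all elements. An A of 0 is therefore the median element of the library, not an empty promoter. Members were chosen by their own values: A above 0.5 on both promoters, and A on pCrx minus A on pRho from -0.4 to 1. The rule picked 319 of 1270 unmodified elements, in a library of 14987 elements. Of the others, 117 were over 0.5 on pRho only, 161 on pCrx only and 620 on neither, and 53 were over 0.5 on both but outside the limits of the difference (11 above 1 and 42 below -0.4). Because the members' A values selected them, those values are given as a description, with no test.

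The data come from CRE-seq, a reporter assay that reads each element's activity from short barcodes in the transcript. Wild-type CD1 retinas taken at birth received 30 µg of plasmid library together with 30 µg of a CAG-GFP plasmid, and were then cultured for 8 days. In the first group the elements of 100 bp sat upstream of a rhodopsin promoter (pRho), in the second upstream of a Crx promoter (pCrx), both driving DsRed with barcodes of 13 bp. Pools of 5 retinas were the replicates, 3 per promoter, and each pool gave 1 cDNA and 1 DNA library. By the labels the 2 groups differ in promoter and share strain, genotype, age and co-transfected plasmid. Each promoter had its own plasmid library and pools, so a batch that went with the promoter cannot be told apart from it. Pooled whole retinas do not tell which cell type made the reporter, and fewer active cells and less reporter per cell cannot be told apart. Native transcripts were not counted, so the tissue could not be set against its marker genes. The 12 libraries held between 24726849 and 36500857 reads. A member had a median of 2272 DNA and 3857 cDNA reads per pRho library and of 2232 and 3403 per pCrx library. The lowest single value was 119 reads.

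As background, photoreceptors are specified by homeodomain factors with a lysine at residue 50, chiefly CRX and OTX2, which bind TAATCC and its relatives. These K50 sites can stand alone (monomers) or face each other in a head-to-head dimer site. Homeodomains with a glutamine at that residue prefer TAATTA (Q50 sites). Rod enhancers are known to combine K50 sites with sites for NRL, a leucine zipper factor of rods. Other partners are NEUROD1, an E-box factor, MEF2D, and nuclear receptors that read AGGTCA.

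Windows of 30 bases from leading members show the homeodomain-type sequences they carry. They are shown because each holds a base whose change is described later. Capitals mark TAAT cores and the K50-type sequences, which are TAAT or TAAG followed by CC or CT, on either strand. Coordinates are those of the 100-bp element in mm9, and the windows are printed along the plus strand of the design.
chr14:52727841-52727940: cttataaATTAATCCtccttTAAGCCagtc
chr10:80876714-80876813: gcggctccttatgTAATtgggccgttgtcc
chr2:25323257-25323356: gctgcacTAATCTgactaTAATtccctccc
chr4:139687655-139687754: caagaaagtgggcTAATCCaatATTAccaa
chr13:92998111-92998210: cagctgacTAATCTttcTAATCCccctccc
chr4:80552808-80552907: gagatttgacagGGATTAtagagtggggat
chr6:117869430-117869529: taaatcctttgcTAATCCttggcctgctgt

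The strongest member by its lower A, chr14:52727841-52727940, had A of 2.22, 2.51 and 2.27 in the 3 pRho replicates and 2.69, 3.00 and 2.74 in the 3 pCrx replicates. That is 5.03-fold and 7.07-fold above the median element from the summed reads, and the pCrx replicates all lay above the pRho replicates. Element chr10:80876714-80876813 gave 2.19, 2.05 and 2.42 on pRho and 2.09, 2.39 and 1.93 on pCrx, and here the promoters overlapped. So they did for chr2:25323257-25323356, with 2.12, 2.06 and 2.13 on pRho and 1.96, 2.36 and 1.89 on pCrx. Element chr4:139687655-139687754 reached 1.79, 2.35 and 2.08 on pRho and 2.53, 3.00 and 2.54 on pCrx, without overlap. The homeodomain-rich chr13:92998111-92998210 was measured at 1.94, 2.01 and 2.22 on pRho and 2.24, 2.47 and 2.16 on pCrx, with overlap. The lower A values of the last 3 were 2.09, 2.06 and 2.05, with SDs over replicates of 0.25, 0.28 and 0.15, so their order is not resolved.

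**Figure D1:**
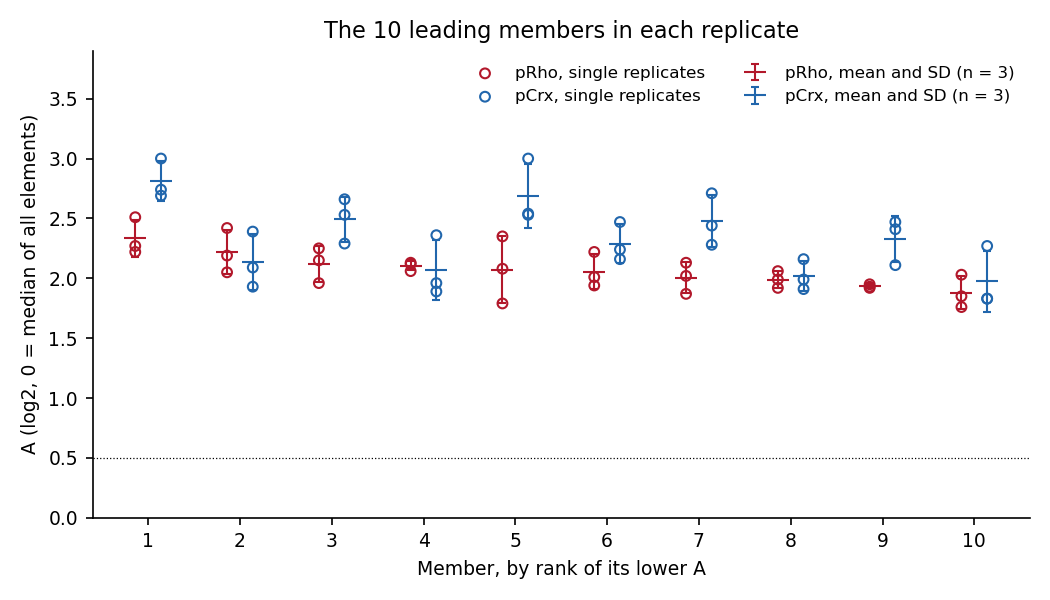
A (log2, 0 is the median of all elements) of the 10 leading members in each replicate, ordered by the lower of the A values on the 2 promoters; circles are single replicates, bars the mean and SD of 3. All replicates of these members lie above the 0.5 threshold (dotted), and in 5 of the 10 all pCrx replicates lie above all pRho replicates.

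The remaining leading members were chr18:56764919-56765018 (A of 2.12 on pRho and 2.51 on pCrx), chr4:80552808-80552907 (2.00 and 2.49), chr11:71845740-71845839 (1.99 and 2.04), chr4:102446572-102446671 (1.94 and 2.34) and chr6:117869430-117869529 (1.88 and 2.00). Over all 319 members, A ran from 0.51 to 2.33 on pRho with a median of 1.17, or 2.25-fold above the median element. On pCrx it ran from 0.50 to 2.82 with a median of 1.41, or 2.65-fold. The difference between promoters had a median of 0.19, with 220 members higher on pCrx and 99 higher on pRho. The median SD over replicates was 0.10 on pRho and 0.16 on pCrx.

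Most members passed the 0.5 threshold on both promoters in each replicate. The limits of the difference are left aside here, and with all thresholds met in each replicate the number is lower, as given at the end. Every member was above 0 in each of the 6 replicates, and 286 of 319 were above 0.5 in all 6. Each member had 6 or 7 barcodes, with a median SD of log2 ratio between barcodes of 0.28 on pRho and 0.29 on pCrx. In 271 members every barcode lay above 0 on both promoters. The thresholds cut through a continuum. The 5 members just inside the pRho threshold had A of 0.509 to 0.531 and the 5 elements just outside 0.452 to 0.479. On pCrx these values were 0.505 to 0.547 inside and 0.457 to 0.5 outside. At the upper limit of the difference, members had 0.975 to 0.994 and the excluded elements 1.02 to 1.19. At the lower limit, members had -0.361 to -0.399 and the excluded elements -0.4 to -0.436.

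**Figure D2:**
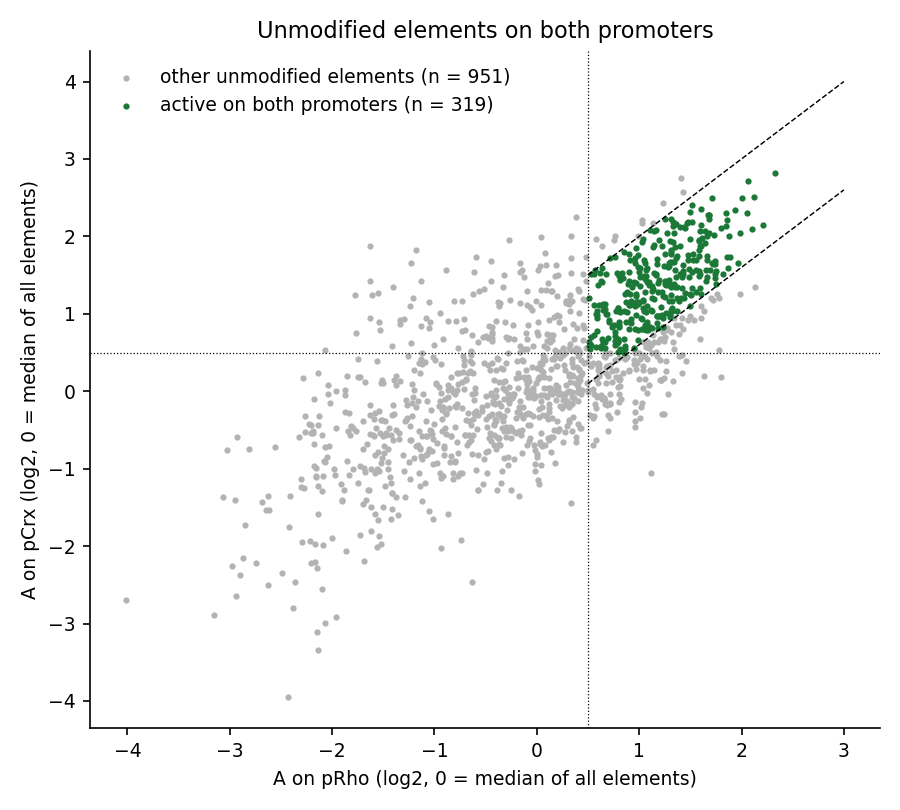
A on pRho (horizontal) against A on pCrx (vertical), both log2 with 0 at the median of all elements, for the 1270 unmodified elements; green points are the 319 members. Dotted lines mark 0.5 on each axis and dashed lines the limits of the difference, -0.4 and 1; the members form the edge of a continuous cloud.

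Homeodomain sequences were about as frequent in members as in the other genomic elements. At least 1 K50-type sequence was found in 307 of 319 members (96.2%) and in 95.3% of all unmodified elements. TAATCC itself was in 64.9% against 63.7%, the Q50 sequences TAATTA or TAATTG in 14.4% against 14.3%, and the dimer of TAAT and ATTA with a spacer of 3 bases in 3.13% against 2.76%. Members with 2 or more K50-type sequences made up 52.4%, against 47.5% of all. Median GC content was 48% against 49%. All motifs were searched on both strands, overlapping matches counted, and a match is a description of letters and not of binding.

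Sequences of 3 partner families were found in a larger share of the members than of all unmodified elements. The NEUROD-type E-box (CAGATG or CATATG) was in 60 members (18.8%), against 11.3% of all unmodified elements, 12% of those active on pRho only, 6.83% on pCrx only and 7.10% on neither. The nuclear receptor half-site AGGTCA was in 56 members (17.6%) against 10.2% of all. A MEF2 site was in 16 members (5.02%) against 2.52%. Any of the 3 was in 119 members (37.3%), against 22.4% of all, 23.1% of the elements active on pRho only, 14.9% on pCrx only and 15.0% on neither. The NRL half-site TGCTGA was at 11.9% in members, 12.5% in all and 19.7% in elements active on pRho only. These shares are counts over elements chosen by activity, and no test was made of them. Elements active on both promoters but outside the limits of the difference were not given as a part of their own. The shares therefore do not set the members apart from those elements, and the larger shares may not be particular to the members.

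These windows of members show such partner sequences, each from an element whose base changes are described later or that lies at a gene start, with the E-box, AGGTCA or MEF2 site in capitals.
chr15:7028498-7028597: ccattgaaCAGATGgccAGGTCAtagtgtt
chr11:71845740-71845839: tctggattagccCAGATGtcctgggctgac
chr14:52727841-52727940: tcatcccagcaaTGACCTaaattcagcttc
chr4:80552808-80552907: cttagatgctagTGACCTacttttagtatt
chr15:86688884-86688983: tgttccCAGATGcccttgaTGACCTgcagg
chr14:60790482-60790581: tgtggctaacCTAAAAATAGctgctagaag

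Only 4 members shared 30 or more bases with a RefSeq promoter window (GRCm38.p6, 250 bases before to 50 after a gene start, 32851 windows), of 13 unmodified elements that did. They fell at Casz1, a zinc finger transcription factor known from retinal progenitors and photoreceptors, and at the predicted genes Gm48552, Gm2233 and Gm33582. The Casz1 element, chr4:148263230-148263329, had A of 1.57, 1.45 and 1.78 on pRho and 1.75, 1.99 and 1.82 on pCrx. Its single K50 monomer change, A82C (the element's base, its position from 1 at the element's first base, the new base), had A of 1.53 on pRho and 1.13 on pCrx, and its 4 changes in the dimer or Q50 sequence stayed at 1.42 or more on pRho and at 1.67 or more on pCrx. Members lay on 20 chromosomes, as did all unmodified elements. Within 10000 bp of each other lay 4 pairs of members, against 96 pairs among all 1270 unmodified elements. The closest pair of members was 1306 bp apart on chromosome 9. In another, chr10:80869522-80869621 (1.74 and 1.68 on pRho and pCrx) was 7093 bp from the second-ranked chr10:80876714-80876813. No members shared a stretch of 20 bases.

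The library held 3866 modified versions of 318 members, with their own barcodes and reads, which the choice of members did not use. Tested as cDNA against DNA on pRho, 3248 versions (84.0%) lay over the typical element and 369 (9.54%) under it (edgeR quasi-likelihood test, Benjamini-Hochberg adjusted over 14987 elements). Of all 13717 modified versions in the library, 42.8% were above and 46.1% below. On pCrx 2691 members' versions (69.6%) were above and 438 (11.3%) below, against 36.3% and 39.2% of all. Scaling by total counts in place of TMM moved the share of above among the calls on pCrx from 86.0% to 69.5%, since it moved the median log2 activity of all elements from -0.05 to -0.39 there and from -0.04 to -0.23 on pRho. Versions of 1 element share nearly all of their sequence, so they are not independent of each other.

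By their own A, 2284 versions (59.1%) stayed over 0.5 on both promoters, 622 (16.1%) were over it on pRho only, 77 (1.99%) on pCrx only and 883 (22.8%) on neither. Over all modified versions these shares were 20.6%, 12.4%, 8.70% and 58.3%. Median A of the versions was 0.93 on pRho and 0.76 on pCrx, where the unmodified parents had 1.17 and 1.41. Set against the parent on pRho, 2063 versions fell and 127 rose (edgeR, interaction of allele and library type), where 43.7% and 16.3% of all modified versions did. On pCrx the falls numbered 2481 and the rises 110, where 43.7% and 10.6% of all modified versions fell and rose. Parents were selected for high values, and nothing is read from these counts. The counts of rises were 64 on pRho and 50 on pCrx without replicate 1, and 72 on pCrx without replicate 3. With barcodes as units (limma) 7 rose and 1182 fell on pRho, and 42 rose on pCrx.

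**Figure D3:**
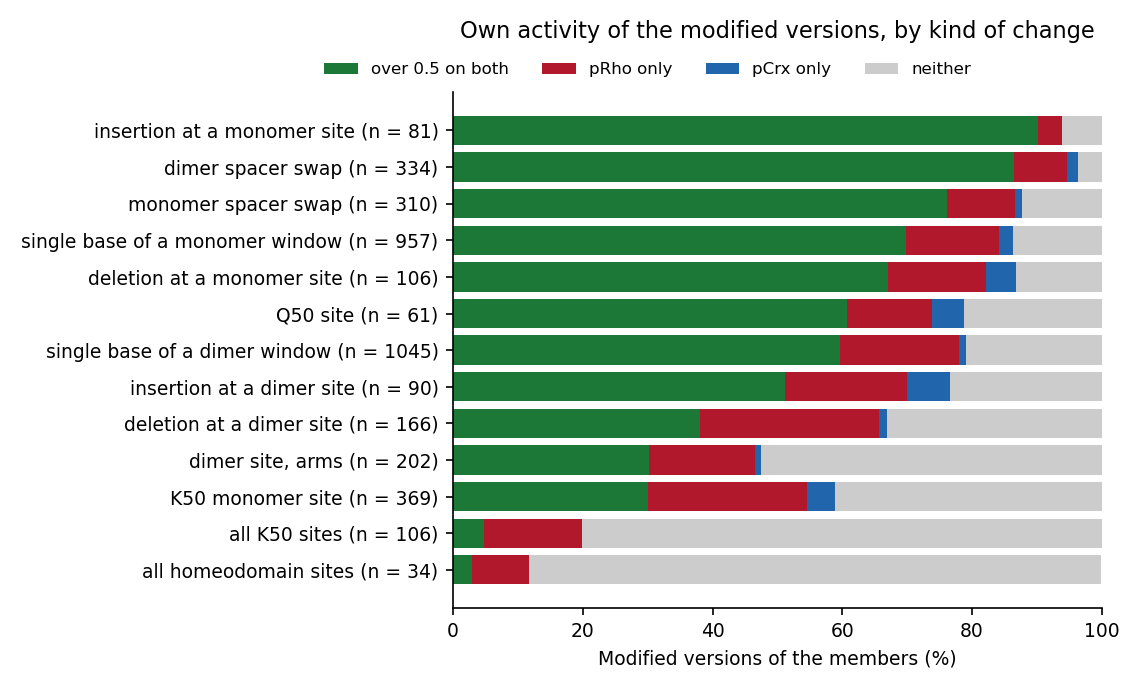
Share (%) of the members' modified versions that stayed over an A of 0.5 on both promoters (green), on pRho only (red), on pCrx only (blue) or on neither (grey), by kind of change, for kinds with at least 30 versions. The share over 0.5 on both runs from 2.94% in the class named for all homeodomain sites to 90.1% with an insertion at a monomer site.

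How much activity was left depended on the kind of change. With every annotated K50 site changed, 5 of 106 members stayed over 0.5 on both promoters and 85 on neither, with median A of -0.17 on pRho and -0.14 on pCrx. In the class named for all homeodomain sites it was 1 of 34, with medians of -0.31 and -0.38. That 1 version, from chr14:37880010-37880109, left a scanned dimer in place, as described below. Changing a single K50 monomer left 111 of 369 versions (30.1%) over 0.5 on both and a further 24.4% on pRho only, and changing dimer arms left 61 of 202 (30.2%). Spacer swaps, some of which change fewer than 3 bases, left 289 of 334 dimer versions (86.5%) and 236 of 310 monomer versions (76.1%) over 0.5 on both. Many of them still fell from the parent. On pCrx 32.9% of the dimer and 52.9% of the monomer swaps did, against 30.1% and 36.8% over all modified versions. On pRho 27.2% and 40.3% did, against 30.6% and 42.1%. Over all modified versions, the shares over 0.5 on both were 1.66% with all K50 sites changed, 1.57% with all homeodomain sites, 10.4% with a K50 monomer, 10.7% with dimer arms, and 32.9% and 22.4% with dimer and monomer spacers. Of the versions with all K50 sites changed, 12 still held a K50-type sequence elsewhere in the element and 41 a TAAT. In the class of all homeodomain sites, 4 of 34 still held a K50-type sequence and 13 a TAAT.

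**Figure D4:**
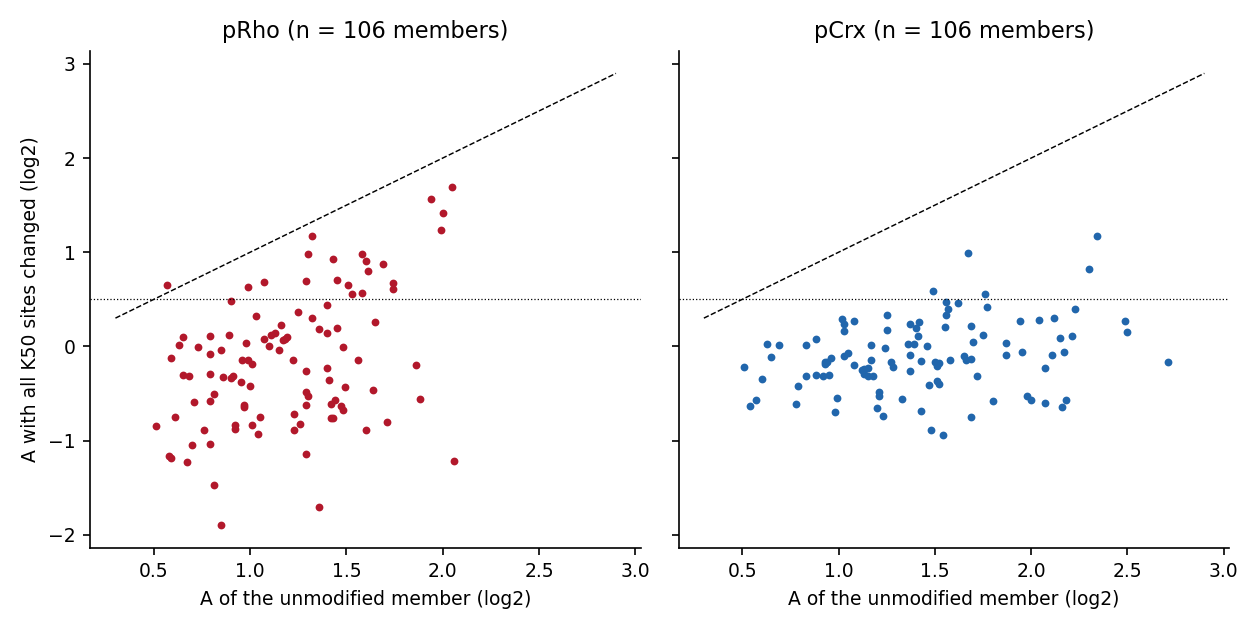
A of the version with all K50 sites changed (vertical) against A of its unmodified member (horizontal), log2, for 106 members on pRho (left) and pCrx (right); the dashed line marks equal values and the dotted line 0.5. With all sites changed the extremes are -1.90 and 1.69 on pRho, -0.94 and 1.17 on pCrx, and nearly all points lie below the dashed line.

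The version with all K50 sites changed could be set against versions of the same element with 1 site changed, a comparison that uses no value of the unmodified member. On pRho the version with all sites changed was lower in 175 of 222 pairs (78.8%) and higher in 4, with a median log2 difference of -0.62 (edgeR, adjusted over 747 pairs of the library). Over all 747 pairs 57.4% were lower and 14.1% higher. On pCrx it was lower in 108 pairs (48.6%) and higher in 6, with a median of -0.39, against 31.5% lower and 8.17% higher over all pairs. The 222 pairs come from 106 members and share the version with all sites changed. They were still picked through the members' high values. Versions of members with 1 K50 monomer changed had median A of 0.58 on pRho and 0.22 on pCrx, against -0.32 and -0.19 over the library. The members' versions thus had further to fall, and nothing is read from the excess over the library shares. With barcodes instead of replicate pools as units (limma), 124 pairs were lower on pRho and 71 on pCrx, and 0 were higher on either. The counts of higher pairs were 2 on pRho without replicate 2 or 3, and 2 on pCrx without replicate 1.

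Single changes in 3 leading members left them over 0.5 on pRho. In chr14:52727841-52727940, A42C had A of 1.97 on pRho and 2.18 on pCrx, and A38G had 2.18 and 2.75. In chr10:80876714-80876813, A50G had 1.91 and 1.75. In chr2:25323257-25323356, A40C had 1.29, 1.25 and 1.37 on pRho but 0.16, 0.60 and 0.25 on pCrx.

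In 1 leading member a single site change left as little activity as the change of all sites, within error on both promoters. In chr4:139687655-139687754 the changes T10G and T47G left A of 1.54 and 1.75 on pRho and 2.24 and 1.89 on pCrx. The change A86C, in the TAATCC printed above, left -0.85, -1.18 and -1.30 on pRho and -0.00, -0.22 and 0.15 on pCrx, in replicates that do not overlap those of the other single changes. Changing all 3 sites gave -1.22 and -0.17, which differed from A86C alone by -0.11 ± 0.14 on pRho (SE, adjusted p = 0.49, edgeR) and -0.16 ± 0.18 on pCrx (adjusted p = 0.494). Against T47G alone, the version with all sites changed differed by -2.96 ± 0.11 on pRho (adjusted p = 1.4e-27, edgeR).

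In chr6:117869430-117869529 the change of both sites went below each single change on pRho. Changing A50C left A of 0.78 on pRho and -0.30 on pCrx, and A61C left 0.45 and -0.22. Both changes together gave -0.54, -0.57 and -0.57 on pRho, with differences of -1.35 ± 0.10 from A50C alone and -1.01 ± 0.09 from A61C alone (SE, adjusted p = 2.6e-17 and 1.7e-13, edgeR). On pCrx both together gave -0.57, and the differences were -0.26 ± 0.14 and -0.34 ± 0.14 (adjusted p = 0.159 and 0.0438, edgeR).

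Other leading members stayed high on pRho with both K50 sites changed and were below 0.5 on pCrx. In chr4:80552808-80552907, which holds the AGGTCA shown above on its minus strand, changing both K50 sites left A of 1.49, 1.36 and 1.42 on pRho. On pCrx the same version had 0.28, 0.12 and 0.37, which differed from the single changes T41G and T55G by -1.61 ± 0.14 and -1.64 ± 0.13 (SE, adjusted p = 1.1e-10 and 1.0e-11, edgeR). In chr11:71845740-71845839 the version T31G T92G had 1.24 on pRho and 0.28 on pCrx. Here T92G alone gave 0.49 on pCrx and T31G alone 1.80, and the change of both differed from T92G alone by -0.19 ± 0.16 (adjusted p = 0.353, edgeR) and from T31G alone by -1.52 ± 0.13 (adjusted p = 6.5e-11).

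Of the versions with all K50 sites changed, 5 were over 0.5 on both promoters. The strongest came from chr13:92998111-92998210, shown with the changed bases in capitals, first unmodified and then with A50C and A59C.
unmodified: cagctgactaAtctttctaAtccccctccc
A50C A59C: cagctgactaCtctttctaCtccccctccc
It had A of 1.70, 1.78 and 1.59 on pRho and 0.90, 0.87 and 0.67 on pCrx, a difference of pCrx minus pRho of -0.87 ± 0.11 (SE, adjusted p = 4.6e-08, edgeR). From A59C alone it differed by 0.02 ± 0.08 on pRho (adjusted p = 0.826, edgeR) and by -0.45 ± 0.11 on pCrx (adjusted p = 0.00197). The other 4 were chr4:102446572-102446671 (1.56 and 1.17 on pRho and pCrx), chr19:10683188-10683287 (0.98 and 0.99), chr7:123856861-123856960 (0.68 and 0.59) and chr14:17244362-17244461 (0.63 and 0.56). The chr7 element holds 2 NEUROD-type E-boxes and the chr19 element an AGGTCA. The chr13, chr4 and chr14 elements hold no NEUROD-type E-box, AGGTCA or MEF2 site. Over all 106 members, the 37 whose parent holds an E-box of this type, AGGTCA or a MEF2 site had medians of 0.04 on pRho and -0.06 on pCrx, and the 69 without had -0.30 and -0.17. Over 0.5 on both promoters were 2 of the 37 and 3 of the 69. The ranges of the groups overlapped widely.

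In 57 members a 13-bp window around a K50 site was changed base by base, 30 at dimer and 27 at monomer sites. Position 2 of each window, read along the strand of its TAATCC-like sequence, is the first base of that sequence. The first core is at 2 to 5, the spacer at 6 to 8 and the second core of dimers at 9 to 12. In monomer windows positions 9 to 12 are only the matching places and are not taken as a core. In both sets the lowest medians were those of position 4, the second A of TAAT. Median A there was 0.49 on pRho and -0.00 on pCrx in dimers, and 0.44 and 0.08 in monomers, and 22.5% and 18.8% of versions stayed over 0.5 on both promoters. Changes at the first flank left 97.8% and 92.6% over it. The sets differed at positions 9 to 12: at position 10, 43.8% of the dimer versions but 95.1% of the monomer versions stayed over 0.5 on both. Averaged per element first, positions 9 to 12 had mean A of 0.86 ± 0.44 on pRho and 0.73 ± 0.49 on pCrx in 30 dimers (SD over elements). In 27 monomers these means were 1.13 ± 0.31 and 1.28 ± 0.46, so the spreads of the sets overlapped.

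**Figure D5:**
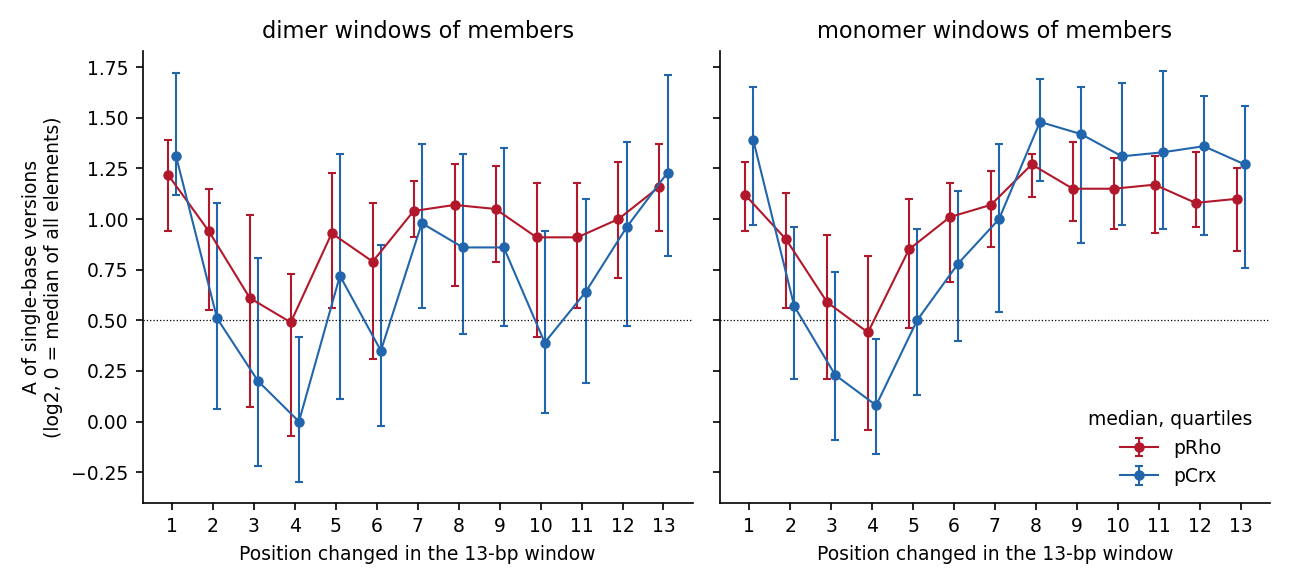
Median A (log2, 0 is the median of all elements; bars span the quartiles) of single-base versions by the position changed in the 13-bp window, for 30 members with dimer windows (left) and 27 with monomer windows (right), on pRho (red) and pCrx (blue). Both curves are lowest at position 4, and at position 10 the pCrx median is 0.39 in dimers and 1.31 in monomers.

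Insertions and deletions left fewer versions over 0.5 at dimer than at monomer windows. A deletion of 1 base in dimer windows left 34 of 70 versions (48.6%) over 0.5 on both promoters, of 2 bases 31.8% and of 3 bases 26.7%. In monomer windows these shares were 82.5%, 61.5% and 51.9%. Insertions of 1, 2 and 3 bases left 60%, 50% and 43.3% in dimers and 92.6%, 88.9% and 88.9% in monomers. The same order held over all modified versions, so it is not particular to the members. There deletions of any length left 17.2% at dimers and 22.8% at monomers, and insertions 21% and 30.8%. The unmodified window members also differed, with median A on pCrx of 1.34 for dimers and 1.54 for monomers. Of the spacer triplets put into dimers, CCG and CGG kept all 30 and all 29 versions over 0.5 on both, with median A of 1.77 and 1.75 on pCrx, and TGG kept 17 of 28 (60.7%), with 0.99.

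The window members differed in the share of versions left over 0.5 on both promoters. That share also depends on how far the unmodified member lay above 0.5, so it is not a measure of tolerance alone. The lowest, 16.1%, was in chr2:72884790-72884889, which unmodified had A of 0.67 on pRho and 0.56 on pCrx. The median of the 57 was 73.7%, and 2 members kept all their versions over 0.5 on both. The first was chr18:63784683-63784782, with unmodified A of 1.33 and 2.13. Its 53 versions had A of 0.76 to 1.65 on pRho and 0.99 to 2.34 on pCrx. The second was chr14:37880010-37880109, with unmodified A of 1.67 and 2.27. Its 57 versions had A of 1.08 to 1.95 and 0.61 to 2.35. In the second, the version with A75C and T81G, which leaves the scanned dimer in place, had A of 1.56 on pRho (1.46 to 1.75 over replicates) and 1.35 on pCrx (1.23 to 1.52), and changing the scanned dimer itself (A29C T35G) gave 1.21 and 0.68. Next came chr15:7028498-7028597 (56 of 57 versions), chr1:168938927-168939026 (52 of 56), chr15:86688884-86688983 (40 of 54) and chr6:118029902-118030001 (51 of 54), ranked by their lowest A.

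At the other end, the widest range was that of chr11:54119023-54119122, whose versions had A of -1.89 to 1.23 on pRho, and of -2.09 to 1.63 on pCrx. It was followed by chr8:41511143-41511242 (-1.87 to 1.59 on pRho), chr4:41581825-41581924 (-1.76 to 1.62 on pRho), chr10:80852993-80853092 (-0.88 to 2.35 on pCrx), chr1:182368850-182368949 (-1.37 to 1.81 on pCrx) and chr7:86292431-86292530 (-1.96 to 1.14 on pRho). In chr8:41511143-41511242 the deletion of 3 bases at the dimer left -1.68, -2.13 and -1.85 on pRho, where the parent had 1.44, 1.65 and 1.52. In chr1:182368850-182368949 all 3 changes of base 54, inside the dimer's second core, were low: T54A had -0.88 and -1.37 on pRho and pCrx, T54C 0.02 and -0.32, and T54G -0.94 and -0.88.

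The low end of chr11:54119023-54119122 rested on a single substitution, T81G, at the outer flank of its dimer window. The sequences around it are shown with the changed base in capitals.
unmodified: ccctaagctccttcTgtatgccagtgtctg
T81G: ccctaagctccttcGgtatgccagtgtctg
T81G had A of -1.72, -1.74 and -2.26 on pRho and -2.24, -2.19 and -1.93 on pCrx. The 2 other changes of the same base stayed high, T81A at 0.95, 0.68 and 0.89 on pRho and 0.97, 1.17 and 0.92 on pCrx, and T81C at 0.96, 1.11 and 1.12 and 1.49, 1.46 and 1.28. No listed motif was lost or gained with T81G.

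Other versions among the lowest changed a dimer arm or a K50 site in most cases, and a spacer swap was also among them. Element chr6:30690143-30690242 with T64G is shown with the changed base in capitals.
unmodified: cagggcaaagctgcTtactggaattctcct
T64G: cagggcaaagctgcGtactggaattctcct
It had the lowest A on pRho of all the members' versions, -1.81, -2.35 and -1.92, against 1.05, 0.90 and 0.92 in the parent, and -0.58 on pCrx. Adding A58C, which changes the other arm, gave -2.01 and -0.55, and both versions still held the element's 2 TAATCT sequences. The version T38G A74C of chr10:117079082-117079181 had -1.90 on pRho and -0.58 on pCrx, the latter from replicates at -0.31, -0.20 and -1.41. On pCrx the lowest after T81G, ranked by the fitted log2 activity, were T52G of chr6:31474615-31474714 (-1.48), T54A above (-1.37), the version T35G A61C T67G of chr11:108159416-108159515 (-1.22), T61G of chr1:157082918-157083017 (-1.19) and the spacer swap C63T T64G of the same chr11 element (-1.18). By A, a version of chr2:72884790-72884889 at -1.19 lay below the last of these.

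The largest rises above the parent stayed under 1 on the log2 scale. On pRho they were A14C in chr2:156794235-156794334, at 1.30 against 0.71 in the parent, T29G in chr7:90716794-90716893, at 1.09 against 0.51 (a parent just inside the threshold), and the spacer swap T51C G52T in chr1:182368850-182368949, at 1.74 against 1.22. They were followed by T23C in chr5:144467446-144467545 (1.42 against 0.93), A51C in chr12:88468392-88468491 (1.11 against 0.62) and T59A in chr11:108159416-108159515 (1.23 against 0.77). With barcodes as units the rises of A51C and T59A were not called (adjusted p = 0.133 and 0.213, limma). The parent of A51C had 0.44, 0.41 and 1.01 in the pRho replicates. Neither rose on pCrx, where A51C had 1.22 against 1.53 and T59A 1.02 against 1.03. On pCrx the spacer of chr15:86688884-86688983 gave the largest rise, shown with the changed bases in capitals.
unmodified: ggagcccagataagGGgattaaggctagag
G22C G23C: ggagcccagataagCCgattaaggctagag
It had 2.23, 2.23 and 2.17 on pCrx, against 1.21, 1.35 and 1.20 in the parent, without overlap, and 1.87 against 1.60 on pRho. G22C alone gave 2.10 and G22A 1.93 on pCrx, and G22T 1.39. The others were G63A in chr14:60591800-60591899 (1.98 against 1.05), T29G in chr7:90716794-90716893 (1.53 against 0.64), and the same spacers CGG and CCG put into chr1:137225685-137225784 (2.02 and 1.99 against 1.19).

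Versions of the members, like modified versions over the whole library, were often called different between promoters. The unmodified members were chosen with a limited promoter difference, and nothing is read from these counts. Of the 3866 versions, 976 (25.2%) were relatively higher on pCrx and 1249 (32.3%) on pRho (edgeR, interaction of promoter and library type, adjusted over 14987 elements), where 40.6% and 27.8% of all modified versions were. Of these calls 43.9% were thus higher on pCrx. With total-count scaling that share was 28.4%, and without replicate 1 it was 28.0%, so the balance of directions depends on the scaling and on that replicate. The median promoter difference of all elements was 0.12, -0.02 and -0.00 in these 3 fits.

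The element with the plainest split was chr10:80869522-80869621, which holds TAATCC on its minus strand and no other K50-type sequence. The windows show A83 and its replacements in capitals.
unmodified: gggctactaagtggAttagggcagcctgtc
A83G: gggctactaagtggGttagggcagcctgtc
A83T: gggctactaagtggTttagggcagcctgtc
The parent had 1.73, 1.75 and 1.75 on pRho and 1.59, 1.76 and 1.68 on pCrx. A83G had 1.17, 1.24 and 1.15 on pRho but -0.53, -0.35 and -0.33 on pCrx, and A83T 1.19, 1.06 and 1.37 and -0.25, -0.34 and -0.51. A83C was intermediate on pCrx, with 0.66, 1.01 and 0.74, and 1.46 on pRho. All 3 changes thus lay above 1 on pRho in each replicate.

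The opposite split was seen in chr1:168938927-168939026, at the outer flank of a monomer window, where the change A60T had 0.61, 0.43 and 0.66 on pRho and 1.97, 2.02 and 2.01 on pCrx. A60G had 0.97 and 2.06 and A60C 1.28 and 2.00, so pCrx values stayed near the parent's 2.04 for all 3 bases. In chr7:86292431-86292530 the deletion of 3 bases at the monomer site removed its only TAATCC and left -1.86, -2.23 and -1.81 on pRho and 0.35, -0.39 and 0.04 on pCrx. Other versions were higher on pRho, as A83G and A83T were. In chr11:108159416-108159515 the deletion of 3 bases at the dimer left 0.59, 0.72 and 0.47 on pRho and -1.13, -1.63 and -0.76 on pCrx. T52G in chr6:31474615-31474714 had 0.11, 0.13 and 0.03 on pRho and -1.72, -1.51 and -1.32 on pCrx.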

How the data were processed

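CRE-seq barcodes were measured in 12 libraries (cDNA and DNA, 3 pools of retinas per promoter). The deposited table gives raw read counts per barcode; per the labels' protocols, barcodes were amplified by 21 and then 6 cycles of PCR with no molecular identifiers mentioned, so intervals cover counting error and spread between pools only. The sources used here do not name the counting tool; the submitters' processing notes name mm9. The authors' deposited log2 expression values served only as an alternative for choosing members, and 313 of the 319 members are in that table. The authors' own comparison table was not used here.

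Counts were summed over 6 or 7 barcodes per element. A minimum of 10 counts per DNA library was set, and 14987 of 14987 elements met it. Tests used edgeR 4.0.16 in R 4.3.3 (quasi-likelihood, TMM, adjusted p below 0.05) on all elements or pairs; fitted log2 activities differ slightly from A because they are centred by TMM. The code was tested on simulated data. DESeq2 1.42.0, limma 3.58.1, total-count scaling, other filters, leaving out replicates and a replicate block were alternatives. RNA and DNA of a number come from the same pooled retinas per the labels' protocols, which pairs the libraries; deviations of same-numbered libraries from their group means correlated at -0.039 to 0.05. The members and lists were chosen with earlier results of these data known. Named elements were the 10 members of highest lower A, 5 on each side of each threshold, the 6 lowest versions (by fitted log2 activity) and 6 largest rises per promoter, and the 4 largest promoter differences each way. The 6 scanned members with the highest lowest A and the 6 with the widest range were also named. Versions of leading members were added with their values in view. Elements were placed 50 bp inside the named regions of 200 bp. No mm9 annotation was used here, so genes were named only where element sequence matched RefSeq promoter windows.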

Additional observations from a re-analysis of the deposited data

Results flagged for a closer look

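For 8 named versions the activity differed between the promoters by the interaction test (edgeR, adjusted over 14987 elements); differences are log2 on pCrx minus pRho. Higher on pCrx were the 3-base deletion in chr7:86292431-86292530 (1.98 ± 0.19, SE, adjusted p = 3.3e-10), A58C T64G and T64G in chr6:30690143-30690242 (1.46 ± 0.16 and 1.45 ± 0.16) and A60T in chr1:168938927-168939026 (1.43 ± 0.13). Higher on pRho were the 3-base deletion in chr11:108159416-108159515 (-1.71 ± 0.22, adjusted p = 6.2e-08, edgeR), T52G in chr6:31474615-31474714 (-1.59 ± 0.15), and A83G and A83T in chr10:80869522-80869621 (-1.58 ± 0.10 and -1.56 ± 0.12). The replicates of the 2 promoters did not overlap in any of the 8.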

How the results depend on the processing

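Of 636 recomputed values, 606 kept their direction and side of the threshold, 26 lost the call, 3 gained it and 1 reversed. With barcodes as units (limma) the change of T18G A45C in chr4:102446572-102446671 on pRho turned from -0.37 to 0.22 (adjusted p = 0.818); the cause was not tested. Total-count scaling raised the versions below the typical element on pCrx from 438 to 963. With barcodes as units, 7 versions rose and 1182 fell on pRho and 42 rose on pCrx, while of the pairs of all K50 sites against 1 site 0 were higher on pRho, and 0 higher and 71 lower on pCrx. Leaving out 1 replicate gave 64 to 97 rises on pRho, 50 to 76 on pCrx, 541 to 961 versions higher on pCrx, and 2 to 3 and 2 to 8 higher pairs on pRho and pCrx. The replicate block gave 2197 falls and 167 rises on pRho and moved no count of calls by more than 1.5 times; for spacer CCG in chr1:137225685-137225784 on pRho it brought the adjusted p from 0.054 to 0.0499 (edgeR). The number of members was 309 to 313 without 1 replicate, 307 with TMM, 315 without the highest barcode, 314 from median barcodes, 310 from the authors' log2 values, 255 when centred on unmodified elements, and 214 with the thresholds met in each replicate, an alternative chosen after seeing the data. With 3 pools per promoter and 6 or 7 barcodes per element, small differences are not resolved.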
